A study of Mus musculus with 15 samples.

Results

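The genes described here are 46 genes of mitosis, the kinetochore and condensin, measured in Myc-CaP cells, a mouse prostate cancer cell line derived from a tumour driven by a Myc transgene. They were taken from a list of gene names, each through the probe set that carries its symbol alone. Where a symbol had several such probe sets, the one with the highest mean over all arrays was used. All 46 of the 46 listed genes were measured, among 19297 genes in all. Expression was read on 15 Affymetrix Mouse Gene 1.0 ST arrays, in 5 groups of 3: cells with the empty vector (VEC), with wild-type Twist1 (WT), or with the Twist1 forms AQA, DQD or F191G. Twist1 belongs to the basic helix-loop-helix family of transcription factors, and F191G is altered in its Twist box, a conserved stretch near the end of the protein. What AQA and DQD alter is not stated in the labels. All groups share the Myc-driven background, were transfected and selected, and were harvested at confluence. Whether a group is 1 clone or a pool of selected cells is not given.

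Values are log2 intensities as deposited by the authors. Replicates carry the letters A, B and C, and the labels do not say whether these were separate cultures, so p-values measure only how far these arrays spread, and part of that may be technical. The labels also give an array batch. Batch A holds 8 arrays, with replicates A and B of VEC, WT and AQA and replicate A of DQD and F191G, and batch B holds the other 7. With group in the model, the fitted difference between the batches lay between -6e-09 and 6e-09 for all 23811 probe sets, so the deposited values hold no mean difference between batches within groups. One array stood apart. Correlations of WT replicate A with the others ran from 0.969 to 0.991 over all genes, and those among the other arrays from 0.990 to 0.998. When the difference of batch B minus batch A was fitted again without WT replicate A, its median was -0.136 over the members (range -0.218 to -0.0462), against 0.0026 over all genes. Differences between arrays of the same batch are not touched by this. The main counts and medians that rest on WT are therefore given with and without WT replicate A. So are the WT against VEC differences of genes whose values on every array are listed. Other results, among them the medians of genes grouped by role and the differences of many further genes, are given from all arrays only. Their sizes include the part of WT replicate A.

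Mitosis begins when Cdk1 with its cyclins is switched on, after which condensin and topoisomerase compact the chromosomes and kinetochores built on the centromere attach them to spindle microtubules. The spindle checkpoint holds back the anaphase-promoting complex (APC/C) until all chromosomes are attached, and motor and midzone proteins then separate the chromosomes and the daughter cells. These genes are transcribed in the G2 and M phases of the cell cycle, through Foxm1, Mybl2 and the MuvB complex, and their joint level is widely used as a readout of cycling. In bulk RNA, fewer cells in mitosis and less RNA per cell cannot be told apart.

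The mean of the 46 genes on each array read 9.67, 9.30 and 9.51 in VEC replicates A, B and C, and 7.77, 9.12 and 9.03 in WT. It read 9.74, 9.18 and 9.60 in AQA, 9.85, 9.48 and 9.62 in DQD, and 9.83, 9.36 and 9.40 in F191G. The 3 WT arrays were the lowest of the 15, and WT replicate A lay far below the rest. It held the lowest value of the 15 arrays for 46 of 46 genes, with a mean difference from VEC of -1.73 (gene by gene from -2.72 to -0.55), against -0.37 for WT replicate B and -0.47 for WT replicate C. The group mean was 8.64 ± 0.76 for WT, against 9.49 ± 0.19 for VEC, 9.50 ± 0.29 for AQA, 9.53 ± 0.26 for F191G and 9.65 ± 0.19 for DQD (SD, n = 3 arrays each). WT replicates B and C alone averaged 9.07. In each of the other 4 groups replicate A was the highest array and replicate B the lowest. Among the batch A arrays, replicate B of VEC, WT and AQA lay between 9.12 and 9.30, so WT and AQA nearly met there.

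**Figure D1:**
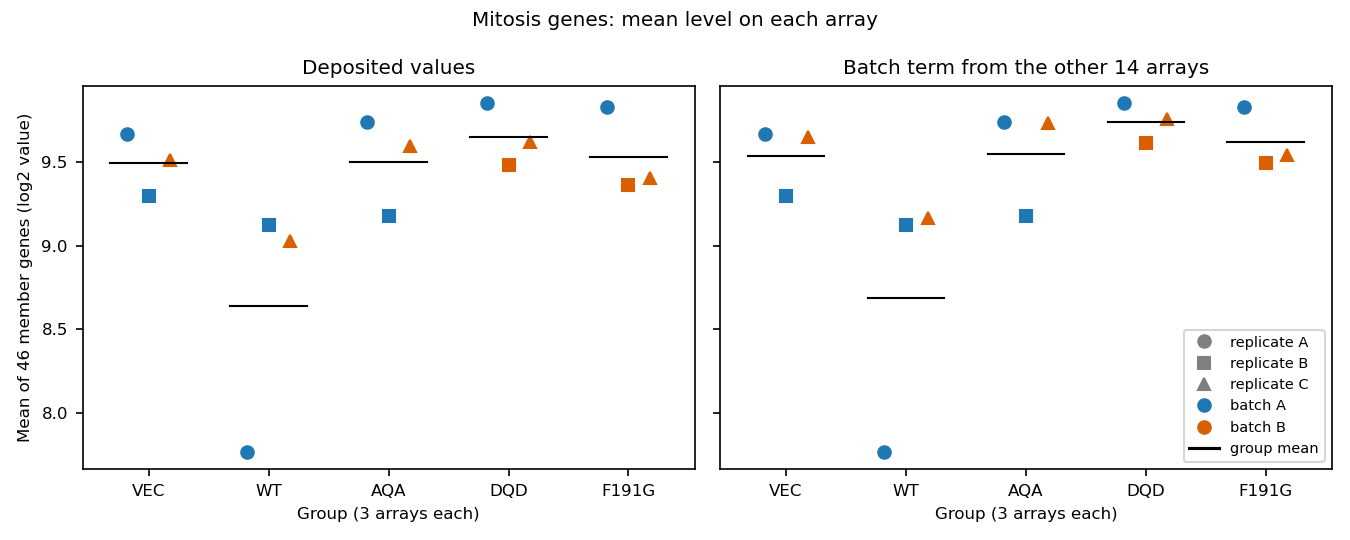
Mean log2 value of the 46 mitosis genes (vertical axis) on each of the 15 arrays by group, with the group mean as a line; marker shape gives the replicate and colour the batch. The left panel shows the deposited values, with WT replicate A at 7.77 and the other 14 arrays between 9.03 and 9.85. The right panel shifts batch B by the batch difference fitted on those other 14 arrays.

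The start of many such genes holds a CHR element, the binding site of MuvB, often with CCAAT boxes, the sites of NF-Y. RefSeq promoter windows (build GRCm38.p6, 250 bases before to 50 after the annotated start) matched 37 of the 46 genes, with the first listed window used for the 3 genes that have several. Genes without a window were Tpx2, Cdc25c, Incenp, Ccna2, Foxm1, Smc4, Spc24, Kif20a and Aurkb. Both strands were searched for TTTGAA or TTTAAA (CHR), CCAAT and the E box CANNTG, the type of site that Twist1 is known to bind. CHR letters were found in 29 of the 37 windows (78.4%), against 23.9% of the windows of 15161 measured genes, and CCAAT in 67.6% against 38.3%. E box letters were found in 62.2% against 67.7%. Closer to the start, from 100 bases before to 50 after, the shares were 70.3% against 10.2% for CHR, 54.1% against 24.4% for CCAAT and 40.5% against 41.9% for the E box. CHR and CCAAT occurred together in 23 windows, CHR alone in 6, CCAAT alone in 2 and neither in 6 (Melk, Trip13, Nuf2, Mad2l1, Nusap1 and Ncaph). These are matches of letters, not sites shown to be bound. The windows below, 150 bases before to 50 after the start, belong to the 5 genes with the smallest p in WT against VEC among those with CHR letters within 100 bases of the start. They are written 5′ to 3′ on the strand of the gene, with CHR and CCAAT letters of either strand in capitals.
Ncapg2 (chr12:116405286-116405485, plus strand): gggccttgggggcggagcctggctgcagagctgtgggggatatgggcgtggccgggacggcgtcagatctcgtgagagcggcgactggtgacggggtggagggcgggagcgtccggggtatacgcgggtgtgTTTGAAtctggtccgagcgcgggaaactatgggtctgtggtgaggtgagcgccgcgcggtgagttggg
Cdca8 (chr4:124936868-124937067, minus strand): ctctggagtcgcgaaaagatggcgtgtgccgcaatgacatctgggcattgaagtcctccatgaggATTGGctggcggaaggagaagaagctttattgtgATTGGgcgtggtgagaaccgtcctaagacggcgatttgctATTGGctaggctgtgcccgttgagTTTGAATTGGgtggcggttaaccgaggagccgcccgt
Cdk1 (chr10:69352863-69353062, minus strand): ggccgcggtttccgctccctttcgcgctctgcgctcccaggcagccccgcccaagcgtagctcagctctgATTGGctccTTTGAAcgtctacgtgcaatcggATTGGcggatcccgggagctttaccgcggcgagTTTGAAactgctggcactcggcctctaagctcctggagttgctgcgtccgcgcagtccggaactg
Smc2 (chr4:52439071-52439270, plus strand): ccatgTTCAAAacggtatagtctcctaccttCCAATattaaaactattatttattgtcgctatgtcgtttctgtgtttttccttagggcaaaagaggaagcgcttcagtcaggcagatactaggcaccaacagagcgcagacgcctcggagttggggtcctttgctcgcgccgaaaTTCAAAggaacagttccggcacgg
Kif15 (chr9:122950931-122951130, plus strand): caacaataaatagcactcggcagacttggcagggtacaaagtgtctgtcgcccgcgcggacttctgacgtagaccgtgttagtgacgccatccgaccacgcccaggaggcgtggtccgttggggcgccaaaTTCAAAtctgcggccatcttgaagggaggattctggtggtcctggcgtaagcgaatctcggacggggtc
In these windows, counting from +1 at the start with no 0, Ncapg2 holds CHR letters at -18 to -13 and no CCAAT. Cdca8 holds them at 14 to 19, where the last base is shared with 1 of its 4 CCAAT matches. Cdk1 holds CHR letters at -71 to -66 and again at -15 to -10, with CCAAT matches between and before them. Smc2 and Kif15 hold theirs on the other strand, as TTCAAA, nearest the start at 27 to 32 and at -19 to -14.

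**Figure D2:**
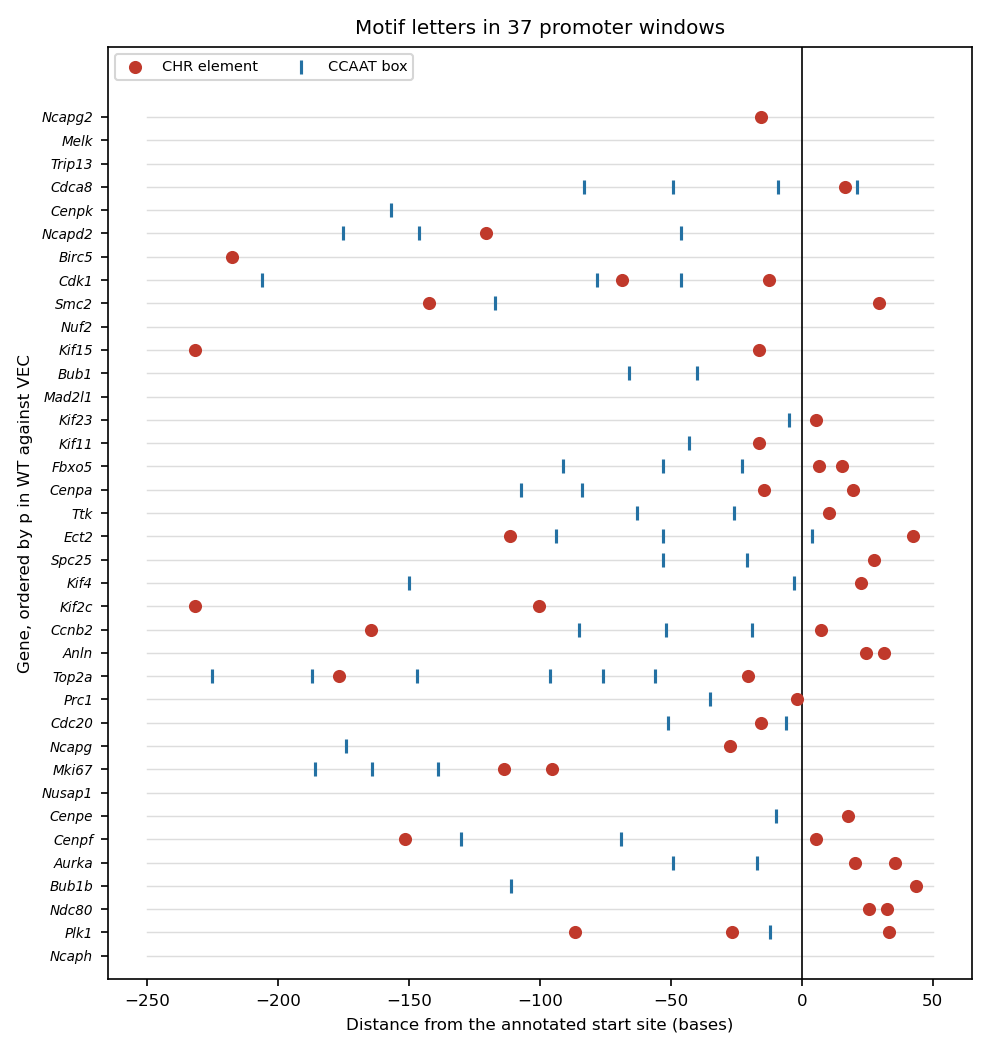
Positions of CHR letters (circles) and CCAAT letters (ticks), in bases from the annotated start at 0, in the promoter windows of 37 of the genes, ordered by p in WT against VEC. In 26 of the 37 genes a CHR match lies between 100 bases before and 50 after the start.

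The design names WT against VEC as its first comparison, asking what wild-type Twist1 changes. All 46 mitosis genes were lower on average in WT, and 10 of them fell at an adjusted p under 0.05 (limma, Benjamini-Hochberg over 19297 genes), while 0 rose. Of all genes, 5.72% were called lower and 7.06% higher. The median difference over the 46 members was -0.80 on the log2 scale, with a range of -1.40 to -0.26, against -0.01 over all genes, and 44 members had an unadjusted p under 0.05. The 10 that fell were Ncapg2, Ncapd2 and Smc2 of condensin, Spc24 and Cenpk of the kinetochore, Cdca8 and Birc5 of the chromosomal passenger complex, the kinases Cdk1 and Melk, and Trip13. With WT replicate A left out, limma called 3 members lower, Spc24, Ncapg2 and Melk (1.69% of all genes were then called lower), and the median was -0.35, with all 46 differences still below 0 and 23 at an unadjusted p under 0.05. It called 43 when WT replicate B was left out and 30 when WT replicate C was, in fits that called 8.45% and 7.19% of all genes lower. It called 6 when VEC replicate B was left out (3.73% of all genes), and 0 when VEC replicate A or C was. In those last fits 22 and 30 members had an unadjusted p under 0.05, and 2.50% and 0.212% of all genes were called lower.

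Every WT array lay below every VEC array for 39 of the 46 genes, a pattern that 16.4% of all genes showed. The exceptions were Plk1, Bub1b, Cenpf, Kif4, Ndc80, Ncaph and Nusap1. With WT replicate A set aside, replicates B and C lay below all VEC arrays for the same count of 39 (22.6% of all genes). This count could not change, since WT replicate A held the lowest value for 46 of 46 genes. It also uses the deposited values, without the batch difference fitted again without WT replicate A. Within batch B, WT replicate C lay below VEC replicate C for 46 of 46 genes (53.4% of all genes), with a median difference of -0.43 over batch B and 6 members called (0.415% of all genes). That fit holds 1 array each of WT and VEC and assumes that they vary like DQD and F191G, which have 2 arrays each in the batch. Within batch A, replicates A and B of WT lay below those of VEC for 40 of 46 (23.4% of all genes), with a median of -0.99, where limma called 0 members, as it called 0% of all genes lower, and 9 had an unadjusted p under 0.05.

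**Figure D3:**
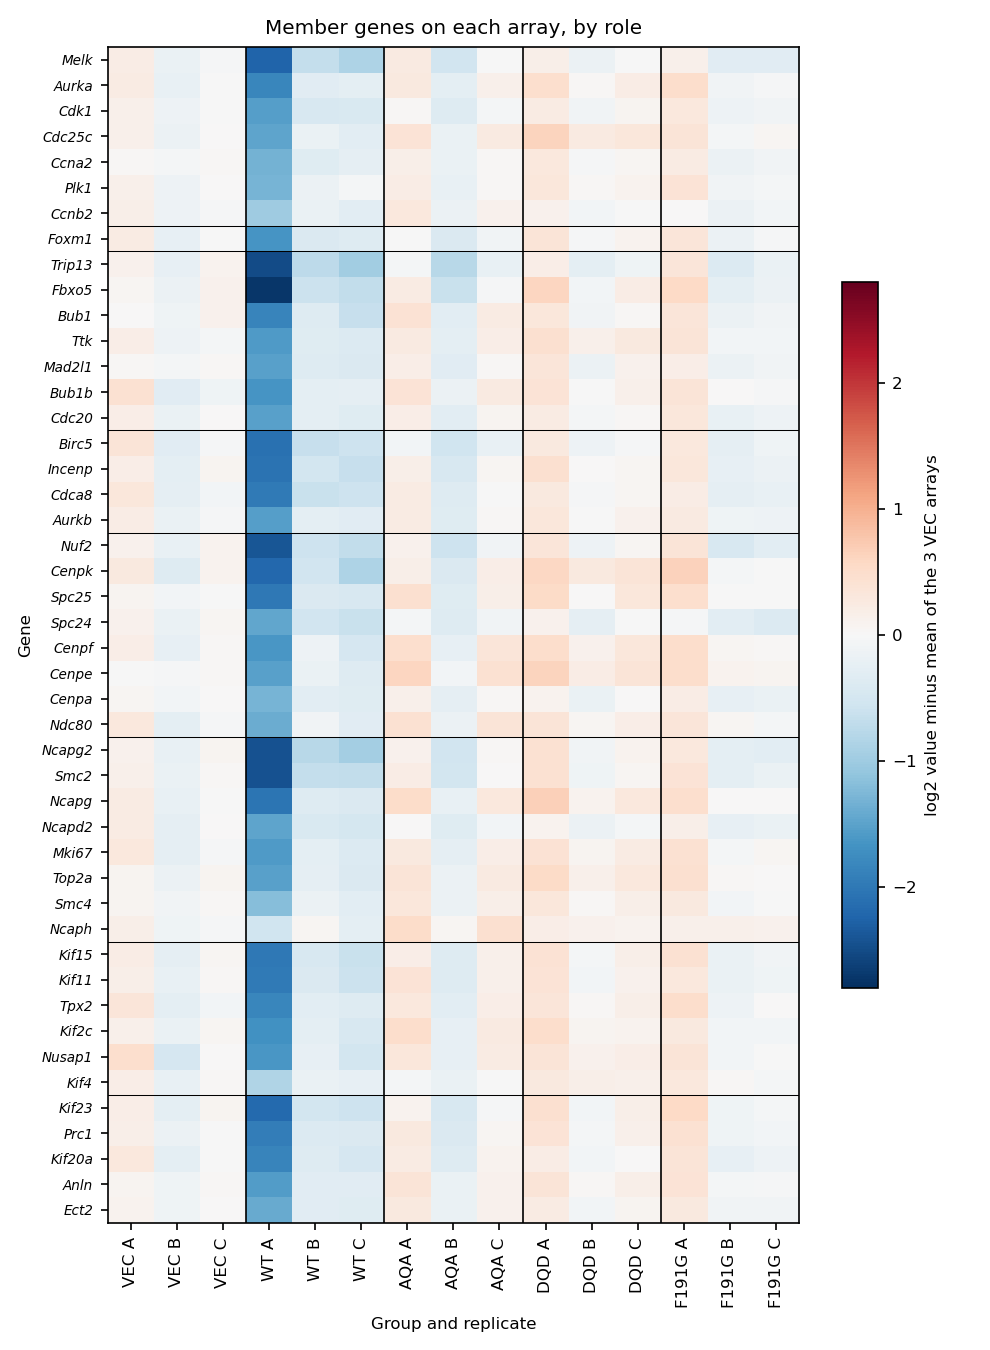
Log2 value of each of the 46 genes (rows, grouped by role) on each of the 15 arrays (columns), minus the mean of the 3 VEC arrays of that gene. The WT columns are blue throughout most rows, WT replicate A deepest, and replicate B of VEC and AQA is paler blue.

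Among the kinases, cyclins and the phosphatase that start mitosis, 2 of 7 fell, Cdk1 and Melk, with a median difference of -0.66 for the group. Of all genes 5.72% were called lower, the share that stands beside each role group below. Differences between role groups were not tested. Cdk1, the kinase that drives entry into mitosis, read 11.31, 11.04 and 11.17 in VEC and 9.64, 10.73 and 10.74 in WT (replicates A, B and C, here and throughout). It read 11.21, 10.81 and 11.11 with AQA, 11.41, 11.07 and 11.24 with DQD and 11.47, 11.03 and 11.08 with F191G. The WT arrays lay below all 12 others, replicates B and C by a small step and replicate A by over 1 log2 unit. The difference between WT and VEC was -0.80 (SE 0.242, adjusted p = 0.0466), and -0.42 without WT replicate A. Melk, a kinase known for its high level in dividing cells, read 8.60, 8.19 and 8.36 in VEC and 6.15, 7.71 and 7.52 in WT, and 8.63, 7.84 and 8.37 with AQA, 8.54, 8.21 and 8.38 with DQD and 8.52, 8.07 and 8.07 with F191G. Again the 3 WT arrays were the lowest, and replicates B and C were clearly below the lowest VEC array. WT differed from VEC by -1.26 (SE 0.328, adjusted p = 0.0278), and by -0.74 without WT replicate A. The other 5 were not called. The cyclin genes Ccna2 and Ccnb2 differed by -0.64 and -0.49, Cdc25c, the phosphatase that activates Cdk1, by -0.66, Aurka, the centrosome kinase Aurora A, by -0.81, and Plk1, the polo-like kinase, by -0.51 (adjusted p from 0.0776 to 0.239). Plk1 was the only member of this group whose WT and VEC arrays overlapped, since WT replicate C (10.89) lay above VEC replicate B (10.79).

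Foxm1, the transcription factor of the G2 and M genes, read 10.03, 9.56 and 9.79 in VEC and 8.14, 9.39 and 9.43 in WT. It read 9.79, 9.39 and 9.70 with AQA, 10.15, 9.77 and 9.89 with DQD and 10.14, 9.62 and 9.76 with F191G. Its WT arrays lay below all VEC arrays, while AQA replicate B was lower than WT replicate C. On the log2 scale Foxm1 stood at -0.81 in WT against VEC (SE 0.281, adjusted p = 0.0764), or -0.36 without WT replicate A. It was not called.

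In the spindle checkpoint and APC/C group 1 of 7 fell (5.72% of all genes called lower), and the median difference was -0.77. Trip13, an ATPase that remodels the checkpoint protein Mad2, read 9.26, 8.90 and 9.24 in VEC and 6.63, 8.41 and 8.16 in WT. In the other forms it read 9.08, 8.35 and 8.93 with AQA, 9.32, 8.85 and 9.01 with DQD and 9.47, 8.74 and 8.94 with F191G. WT lay below VEC on every array, but AQA replicate B lay between WT replicates C and B. For Trip13 the WT difference was -1.40 (SE 0.373, adjusted p = 0.0300) with and -0.82 without WT replicate A. Bub1, a checkpoint kinase at the kinetochore, read 10.14, 10.01 and 10.25 in VEC and 8.29, 9.77 and 9.49 in WT, and 10.54, 9.84 and 10.37 with AQA, 10.45, 10.04 and 10.17 with DQD and 10.47, 9.97 and 10.03 with F191G. All 3 WT arrays were below the other 12. For Bub1 the WT difference was -0.95 (SE 0.306, adjusted p = 0.0581) with and -0.48 without WT replicate A. It was not called. Ttk, the kinase Mps1 that starts checkpoint signalling, read 8.43, 8.10 and 8.19 in VEC and 6.65, 7.90 and 7.85 in WT, and 8.49, 7.97 and 8.42 with AQA, 8.68, 8.39 and 8.52 with DQD and 8.61, 8.17 and 8.16 with F191G. WT was again lowest, and DQD replicates A and C lay above the highest VEC array. WT differed from VEC by -0.77 (SE 0.271, adjusted p = 0.0777), and by -0.35 without WT replicate A. It was not called either. The remaining 4 were not called: Fbxo5, the APC/C inhibitor Emi1, at -1.34, Mad2l1, which encodes Mad2, at -0.76, Bub1b, its partner in the checkpoint complex, at -0.73, and Cdc20, the APC/C activator, at -0.70.

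The chromosomal passenger complex corrects faulty attachments and guides cytokinesis. Of its 4 genes here 2 fell (5.72% of all genes called lower), with a median difference of -1.06. Cdca8, which encodes borealin, read 9.41, 8.85 and 9.02 in VEC and 7.11, 8.48 and 8.52 in WT. It read 9.32, 8.73 and 9.09 with AQA, 9.36, 9.06 and 9.15 with DQD and 9.30, 8.84 and 8.89 with F191G. The WT arrays did not overlap any other group. On the log2 scale Cdca8 stood at -1.05 in WT against VEC (SE 0.308, adjusted p = 0.0420), or -0.57 without WT replicate A. Birc5, which encodes survivin, read 9.32, 8.65 and 8.94 in VEC and 6.87, 8.32 and 8.38 in WT, and 8.90, 8.41 and 8.76 with AQA, 9.24, 8.83 and 8.93 with DQD and 9.27, 8.72 and 8.84 with F191G. WT was below every other array, although AQA replicate B came close to WT replicate C. For Birc5 the WT difference was -1.11 (SE 0.329, adjusted p = 0.0434) with and -0.60 without WT replicate A. Incenp, the scaffold of the complex, differed by -1.07 (adjusted p = 0.0522) and Aurkb, its kinase Aurora B, by -0.71 (adjusted p = 0.111). Neither was called.

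Among 8 centromere and kinetochore genes 2 fell (5.72% of all genes called lower), with a median difference of -0.81. Spc24, a subunit of the Ndc80 complex that grips microtubules, read 8.21, 7.91 and 8.14 in VEC and 6.63, 7.56 and 7.47 in WT. Its values were 8.04, 7.73 and 7.99 with AQA, 8.21, 7.83 and 8.08 with DQD and 8.05, 7.80 and 7.70 with F191G. WT was lowest throughout, and some arrays of each mutant form also lay below the lowest VEC array. The difference between WT and VEC was -0.87 (SE 0.205, adjusted p = 0.0195), and -0.55 without WT replicate A. Cenpk, a subunit of the inner kinetochore network, read 7.67, 7.03 and 7.50 in VEC and 5.21, 6.87 and 6.53 in WT, and 7.57, 7.0 and 7.59 with AQA, 7.98, 7.67 and 7.76 with DQD and 8.05, 7.34 and 7.39 with F191G. WT did not overlap any group, and the lowest DQD array stood level with the highest VEC array. WT differed from VEC by -1.19 (SE 0.350, adjusted p = 0.0427), and by -0.67 without WT replicate A. Nuf2, a further Ndc80 complex subunit, read 8.40, 8.08 and 8.39 in VEC and 5.89, 7.70 and 7.61 in WT, and 8.41, 7.72 and 8.20 with AQA, 8.62, 8.15 and 8.34 with DQD and 8.65, 7.85 and 7.99 with F191G. AQA replicate B came close to WT replicate B from above. On the log2 scale Nuf2 stood at -1.22 in WT against VEC (SE 0.387, adjusted p = 0.0553), or -0.60 without WT replicate A. It was not called. Cenpa, the histone H3 variant that marks centromeres, read 10.29, 10.15 and 10.25 in VEC and 8.93, 9.93 and 9.90 in WT, and 10.38, 9.98 and 10.27 with AQA, 10.32, 10.05 and 10.24 with DQD and 10.43, 9.99 and 10.05 with F191G. Its step between groups was smaller, with WT still below all other arrays. For Cenpa the WT difference was -0.64 (SE 0.219, adjusted p = 0.0734) with and -0.29 without WT replicate A. It was not called. The remaining subunits of the Ndc80 complex, Spc25 (-0.95) and Ndc80 (-0.60), were not called, nor were Cenpe, a kinetochore motor (-0.69), and Cenpf, a kinetochore and matrix protein (-0.75).

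In the condensin and chromosome structure group 3 of 8 fell (5.72% of all genes called lower), with a median difference of -0.76. Ncapg2, a subunit of condensin II, read 8.84, 8.51 and 8.80 in VEC and 6.27, 7.93 and 7.76 in WT. It read 8.83, 8.18 and 8.74 with AQA, 9.14, 8.62 and 8.81 with DQD and 9.01, 8.44 and 8.43 with F191G. All WT arrays lay well below the others. The difference between WT and VEC was -1.40 (SE 0.350, adjusted p = 0.0243), and -0.84 without WT replicate A. Ncapd2, a subunit of condensin I, read 9.68, 9.18 and 9.46 in VEC and 7.97, 9.02 and 8.95 in WT, and 9.45, 9.09 and 9.36 with AQA, 9.54, 9.27 and 9.38 with DQD and 9.60, 9.22 and 9.26 with F191G. WT was lowest on each array, with AQA replicate B next. WT differed from VEC by -0.79 (SE 0.233, adjusted p = 0.0431), and by -0.43 without WT replicate A. Smc2, the core ATPase shared by both condensins, read 9.72, 9.40 and 9.62 in VEC and 7.14, 8.92 and 8.88 in WT, and 9.79, 9.07 and 9.59 with AQA, 10.01, 9.46 and 9.64 with DQD and 9.96, 9.31 and 9.39 with F191G. Here too WT was lowest, with AQA replicate B next. On the log2 scale Smc2 stood at -1.26 in WT against VEC (SE 0.383, adjusted p = 0.0477), or -0.65 without WT replicate A. Top2a, the topoisomerase that untangles sister chromatids, read 10.54, 10.30 and 10.53 in VEC and 8.93, 10.20 and 10.06 in WT, and 10.81, 10.30 and 10.70 with AQA, 11.00, 10.59 and 10.75 with DQD and 10.90, 10.49 and 10.47 with F191G. WT lay below all others and the 3 DQD arrays lay above all 3 VEC arrays. For Top2a the WT difference was -0.73 (SE 0.268, adjusted p = 0.0928) with and -0.31 without WT replicate A. It was not called. A second Top2a probe set, not used for the gene, read between 3.35 and 4.54 on all arrays. Of the rest, Smc4, the partner of Smc2, differed by -0.55, and Ncapg and Ncaph of condensin I by -0.93 and -0.26. Mki67, whose protein coats mitotic chromosomes, differed by -0.74. None of these 4 was called, and Ncaph had the smallest difference of the 46.

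Of 6 genes for spindle motors and microtubule proteins limma called 0, where 5.72% of all genes were called lower. Still, 6 had an unadjusted p under 0.05 and the median was -0.82. Kif15, a motor that helps keep the spindle bipolar, read 8.89, 8.43 and 8.75 in VEC and 6.68, 8.24 and 8.07 in WT. It read 8.88, 8.33 and 8.83 with AQA, 9.10, 8.63 and 8.85 with DQD and 9.11, 8.51 and 8.59 with F191G. WT lay below every other array. For Kif15 the WT difference was -1.03 (SE 0.330, adjusted p = 0.0579) with and -0.51 without WT replicate A. Kif11, the motor Eg5 that pushes the spindle poles apart, read 9.89, 9.52 and 9.77 in VEC and 7.75, 9.33 and 9.13 in WT, and 10.10, 9.36 and 9.87 with AQA, 10.10, 9.66 and 9.85 with DQD and 10.03, 9.53 and 9.60 with F191G. WT was lowest again, with AQA replicate B closest to it. WT differed from VEC by -0.99 (SE 0.331, adjusted p = 0.0663), and by -0.47 without WT replicate A. Kif4, a chromosome-bound motor, read 8.87, 8.47 and 8.72 in VEC and 7.85, 8.49 and 8.45 in WT, and 8.63, 8.50 and 8.68 with AQA, 8.96, 8.85 and 8.83 with DQD and 8.99, 8.71 and 8.63 with F191G. Here WT replicate B lay just above VEC replicate B. On the log2 scale Kif4 stood at -0.43 in WT against VEC (SE 0.156, adjusted p = 0.0911), or -0.21 without WT replicate A. Kif2c, which takes microtubules apart, differed by -0.81, Tpx2, which seeds microtubules and activates Aurora A, by -0.82, and the microtubule-binding Nusap1 by -0.79.

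The 5 midzone and cytokinesis genes also had 0 calls by limma (5.72% of all genes called lower). All 5 had an unadjusted p under 0.05, and the median was -0.88. Kif23, the motor of centralspindlin, read 9.86, 9.39 and 9.75 in VEC and 7.48, 9.15 and 9.09 in WT. It read 9.77, 9.22 and 9.64 with AQA, 10.11, 9.59 and 9.82 with DQD and 10.23, 9.54 and 9.62 with F191G. WT was below every other array. For Kif23 the WT difference was -1.09 (SE 0.362, adjusted p = 0.0644) with and -0.52 without WT replicate A. Ect2, the exchange factor that switches on RhoA at the cleavage site, read 10.93, 10.71 and 10.85 in VEC and 9.43, 10.52 and 10.50 in WT, and 11.11, 10.65 and 10.94 with AQA, 11.07, 10.76 and 10.90 with DQD and 11.11, 10.73 and 10.74 with F191G. The 3 WT arrays were again the lowest of the 15, and the other groups overlapped. The difference between WT and VEC was -0.68 (SE 0.238, adjusted p = 0.0793), and -0.30 without WT replicate A. Prc1, which bundles midzone microtubules, differed by -0.91, Kif20a, a midzone motor, by -0.88, and Anln, a scaffold of the contractile ring, by -0.73.

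**Figure D4:**
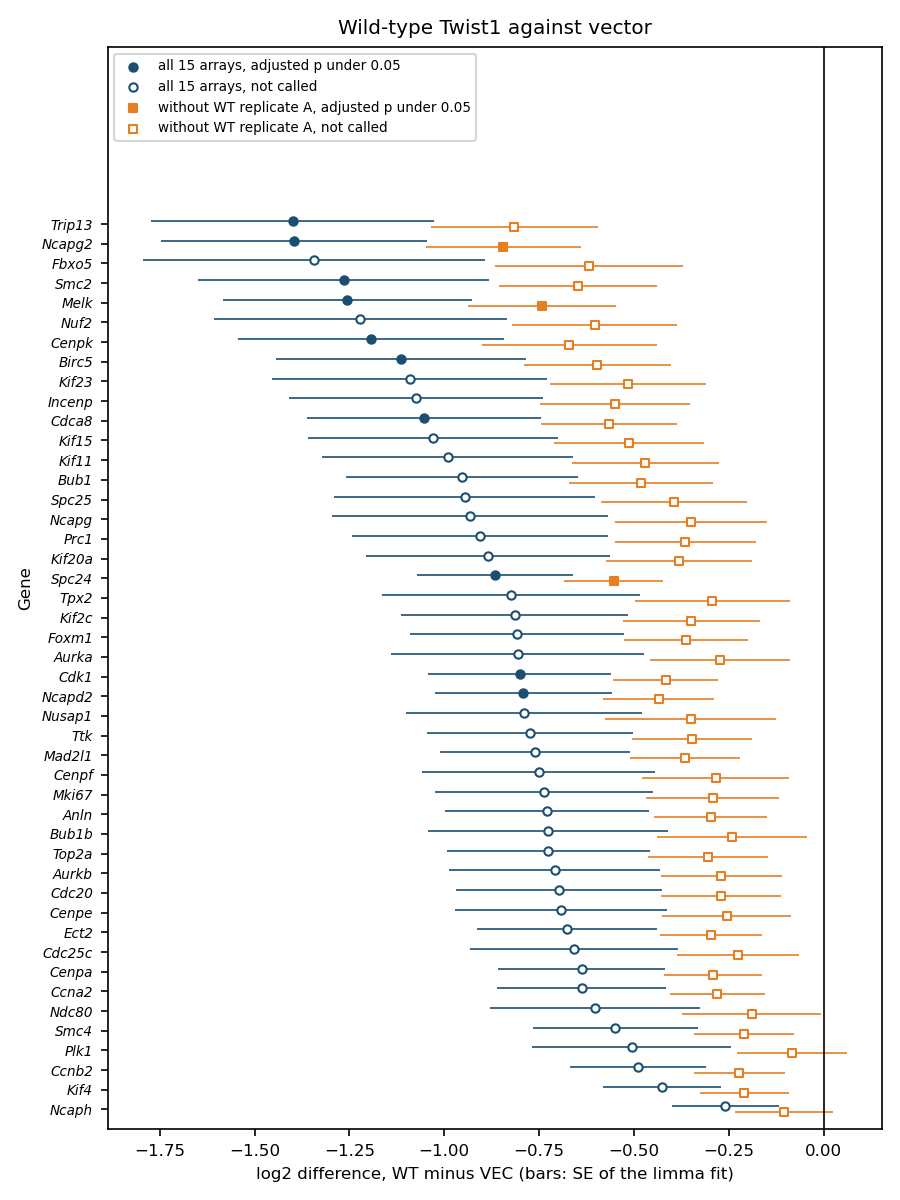
Log2 difference between WT and VEC for each of the 46 genes, with the SE of the limma fit, from all 15 arrays (circles) and without WT replicate A (squares); filled symbols passed an adjusted p of 0.05. All differences are below 0 in both fits, with 10 called in the first and 3 in the second.

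The 26 genes with CHR letters from 100 bases before to 50 after the start had a median WT difference of -0.76 (from -1.40 to -0.43), and the 11 without had -0.95 (from -1.40 to -0.26). The printed windows of Ncapg2, Cdca8, Cdk1, Smc2 and Kif15 belong to genes with differences between -1.40 and -0.80, a range that also holds Melk and Trip13, whose windows have neither CHR nor CCAAT letters.

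The second comparison named by the design, F191G against VEC, and those of AQA and DQD against VEC ask the same of the mutant forms. These comparisons share the VEC arrays. None of the 46 genes was called in any of them, at a background of 0.0985% of all genes called for F191G, 0.881% for AQA and 0.814% for DQD. By limma 0 members had an unadjusted p under 0.05 for F191G, 1 for AQA and 0 for DQD. For F191G the median difference was 0.04 (range -0.24 to 0.22), for AQA -0.003 (range -0.35 to 0.34) and for DQD 0.15 (range -0.07 to 0.41). The gene with an unadjusted p under 0.05 for AQA was Ncaph, at 0.34 (SE 0.142, adjusted p = 0.266), which had the smallest of the 46 differences in WT. A missing call does not show that a form left these genes unchanged. For Ncapg2 the 95% interval ran from -0.87 to 0.68 for F191G, from -0.89 to 0.62 for AQA and from -0.64 to 0.91 for DQD, while that of WT ran from -2.15 to -0.64. For Spc24 they ran from -0.69 to 0.22, from -0.61 to 0.28 and from -0.50 to 0.41, against from -1.31 to -0.42 in WT. The 3 DQD arrays lay above all 3 VEC arrays for 4 of 46 genes (Cenpe, Cenpk, Top2a and Cdc25c), while 12.8% of all genes showed this. WT replicate A enters these fits through the shared spread and the batch term. Without it limma called 0 members for DQD, with 6 at an unadjusted p under 0.05 and a median of 0.20. Of all 19297 genes, that fit called 273 higher and 343 lower for DQD.

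**Figure D5:**
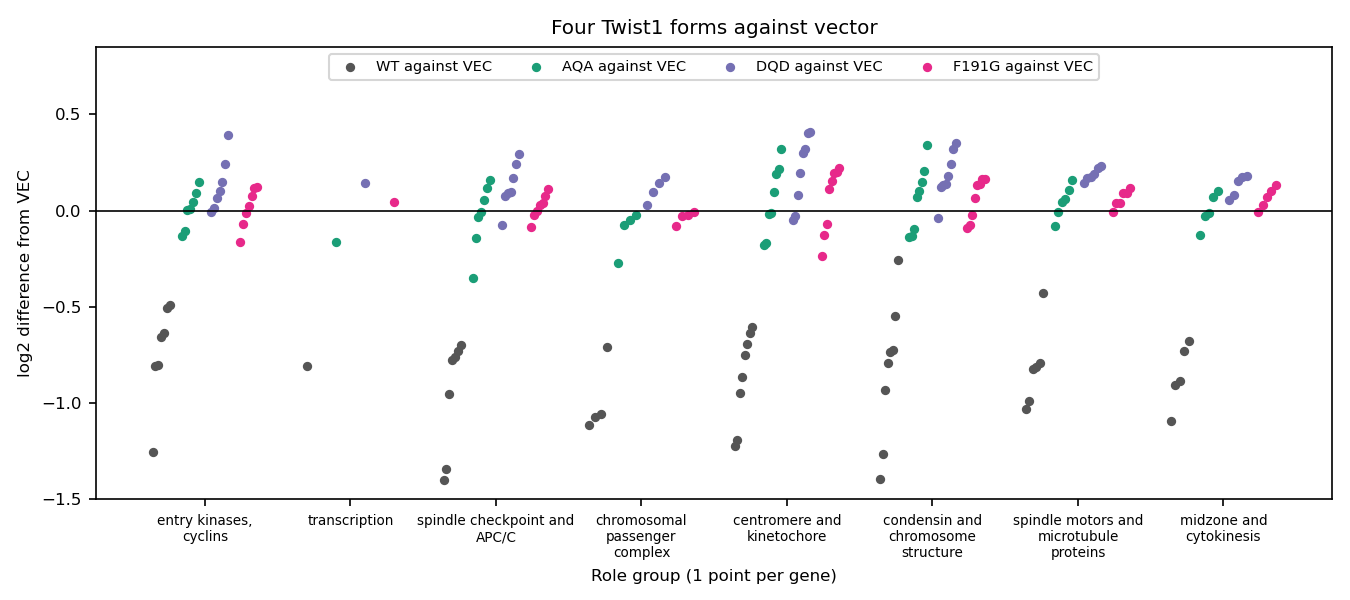
Log2 difference from VEC of each of the 46 genes (1 point each) in WT, AQA, DQD and F191G, by role group. The WT points lie between -1.40 and -0.26 in every group, and those of the 3 mutant forms between -0.35 and 0.41 around 0.

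Set directly against WT, all 46 differences were above 0 for each mutant form, while 37 genes were called for DQD, 2 for F191G and 0 for AQA. These 3 comparisons share the WT arrays. For DQD, the 37 compare with a background of all genes in which 11.8% of all genes were called higher and 12.8% lower, and the median difference over the members was 1.04. The 9 genes not called were Bub1b, Ccnb2, Cdc20, Cenpa, Kif20a, Ncaph, Ndc80, Plk1 and Tpx2. Every WT array lay below every DQD array for 46 of 46 genes, as for 20.2% of all genes. The genes with the smallest p were Cenpk (1.60, adjusted p = 0.0146), Ncapg2 (1.53, adjusted p = 0.0157), Spc24 (0.82, adjusted p = 0.0202), Kif4 (0.62, adjusted p = 0.0208), Ttk (1.07, adjusted p = 0.0210) and Top2a (1.05, adjusted p = 0.0213). Leaving out WT replicate A gave 28 (5.51% of all genes were then called higher) and a median of 0.60, and these 6 differences were 1.13, 1.04, 0.54, 0.42, 0.68 and 0.67. Leaving out DQD replicate A gave 0 calls by limma, with 32 members at an unadjusted p under 0.05 and 0% of all genes called higher. There were 23 calls without DQD replicate B (7.59% of all genes) and 13 without DQD replicate C (8.36%).

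F191G was called higher than WT for 2 of 46 genes (3.18% of all genes), Cenpk at 1.39 (SE 0.359, adjusted p = 0.0420) and Ncapg2 at 1.30 (SE 0.359, adjusted p = 0.0484). The median difference was 0.88, 46 members had an unadjusted p under 0.05, and the arrays of the groups did not overlap for 45 of 46, Plk1 being the exception (15.0% of all genes). Without WT replicate A limma called 0 (0.212% of all genes), with 38 at an unadjusted p under 0.05 and a median of 0.47. None was called without F191G replicate A, B or C either (3, 45 and 44 at an unadjusted p under 0.05), in fits that called 0%, 0.259% and 0.176% of all genes higher. Leaving out WT replicate B gave 42 (7.92% of all genes) and WT replicate C 24 (5.11%). AQA was called higher than WT for 0 of 46 genes by limma (0.306% of all genes), with 45 at an unadjusted p under 0.05 and a median of 0.87. Its arrays lay above all WT arrays for 33 of 46 (11.7% of all genes), and without WT replicate A 0 were called (0% of all genes), 26 had an unadjusted p under 0.05 and the median was 0.40. Without WT replicate B 40 were called (6.61% of all genes), and 7 without AQA replicate B, the lowest AQA array (3.62%). Leaving out WT replicate C, AQA replicate A or AQA replicate C gave 0 calls by limma, in fits that called 0% of all genes higher. All 9 mutant arrays lay above all 3 WT arrays for 33 of the 46 genes, as for 7.18% of all genes. Within batch B, WT replicate C lay below all 5 mutant arrays for 45 of 46 genes, Plk1 excepted (20.9% of all genes).

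Of 76 other mitosis genes, taken from a list of further cohesin, centromere, spindle and cytokinesis genes, 17 fell in WT against VEC and 0 rose, with a median of -0.72, where 5.72% of all genes were called lower. The smallest p belonged to Zw10, a checkpoint protein (-0.67, adjusted p = 0.0117), the centromere genes Cenpp (-1.05) and Cenpm (-0.95), and Cks1b, a subunit of Cdk complexes (-0.50). Leaving WT replicate A out, 4 of the other mitosis genes were called lower (1.69% of all genes) and the median was -0.35. DQD was higher than WT for 68 of the 76 (11.8% of all genes), and for 47 without WT replicate A (5.51%).

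Of 16 G2/M regulators, a list that holds Foxm1, 2 fell in WT and 1 rose, beside 5.72% and 7.06% of all genes. Rbl2, a pocket protein of the repressive DREAM complex, rose by 0.79 (SE 0.162, adjusted p = 0.0123), while Tfdp1, the partner of E2F factors, fell by 0.38 and E2f4 fell by 0.35. Mybl2, the B-Myb partner of MuvB, differed by -1.08 (SE 0.349, adjusted p = 0.0605) and was not called. Without WT replicate A the differences were 0.60 for Rbl2, -0.31 for Tfdp1, -0.26 for E2f4 and -0.52 for Mybl2. In that fit 1 of the G2/M regulators was called higher and 1 lower, beside 2.68% and 1.69% of all genes.

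Of 40 replication genes, which act in S phase, 29 fell and 0 rose in WT, with a median of -0.93, where 5.72% of all genes were called lower. The smallest p belonged to Gins2 (-0.99, adjusted p = 0.0087) and Cdc45 (-1.02) of the replicative helicase, and to the origin genes Orc6 (-0.69) and Cdt1 (-1.002). On the arrays other than WT replicate A, 9 of the replication genes were called lower (1.69% of all genes), with a median of -0.49. Leaving out VEC replicate C gave 0 calls by limma, with 37 genes at an unadjusted p under 0.05, and VEC replicate A 2 calls (0.212% and 2.50% of all genes). DQD was higher than WT for 37 of the 40 (11.8% of all genes), F191G for 7 (3.18%), and AQA for 0 by limma (0.306%), where 36 had an unadjusted p under 0.05.

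Of 15 genes listed as antiproliferative 5 rose and 1 fell in WT, beside 7.06% and 5.72% of all genes. Trp53inp1 rose by 2.18 (SE 0.301) and Btg2, which slows entry into S phase, by 2.22 (SE 0.427). Tob1, a relative of Btg2, rose by 0.69, Mdm2, the p53 ubiquitin ligase, by 0.61, and Sesn1, a stress-response gene, by 0.9999. Mdm2 was counted with the list, although it acts against p53. WT replicate A was the highest array for each of these 5 genes. For Btg2, Tob1 and Sesn1, WT replicate B (8.85, 8.96 and 9.47) lay below AQA replicate B (8.97, 9.14 and 9.60). For Trp53inp1 and Mdm2 all WT arrays lay above all others. Ccng1, a cyclin G gene, fell by 0.23. The other measured genes of the list, among them Cdkn1b, Cdkn1c and Cdkn2a to Cdkn2d, were not called. Without WT replicate A 3 of the antiproliferative genes were called higher and 0 lower by limma (6 and 1 at an unadjusted p under 0.05, with 2.68% of all genes called higher), and DQD was lower than WT for 7 of 15 (12.8% of all genes).

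Markers of the line's own tissue and of other cells were read on the same arrays. Of 7 luminal epithelial markers 0 were called in WT against VEC by limma, and 0 had an unadjusted p under 0.05. The shares of all genes, here and for the other marker lists, were 5.72% called lower and 7.06% higher. In VEC, 5 of these 7 lay below the array median. Krt8 read 8.20 ± 0.66 and Hoxb13 7.20 ± 0.24, while Epcam read 5.09 ± 0.06 and Cdh1 5.66 ± 0.05. The mean of the list on each array ran from 6.17 to 6.39 in VEC and from 6.32 to 6.38 in WT. Of 8 haematopoietic markers 1 was called, Cd68, a lysosomal protein of macrophages that other cells also hold, at 6.48 ± 0.13 in VEC and 7.10 ± 0.33 in WT (adjusted p = 0.0269). Without WT replicate A its difference was 0.43 and it was not called. Ptprc, the defining marker of that list, read 4.67 ± 0.07 in VEC and 4.59 ± 0.07 in WT. The list mean ran from 5.18 to 5.24 in VEC and from 5.20 to 5.29 in WT. Of 10 fibroblast and endothelial markers 0 were called by limma (1 at an unadjusted p under 0.05), with list means from 5.78 to 5.82 in VEC and from 5.81 to 5.90 in WT. In VEC, 7 of these 10 lay below the array median. Those above it were Pdgfra (7.16 in VEC and 7.55 in WT), Col1a1 (7.07 in VEC) and Col1a2 (6.8 in VEC). They read higher than Epcam and Cdh1. The part of any of these markers in the differences of the mitosis genes was not tested.

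For Twist1 itself the level was 6.43 ± 0.29 with the empty vector and 6.79 ± 0.06 with wild-type Twist1, against 6.68 ± 0.24 for AQA, 6.78 ± 0.18 for DQD and 6.75 ± 0.10 for F191G. WT and VEC differed by 0.36 (SE 0.147, adjusted p = 0.129). Which part of the transcript the probe set reads is not stated, so it cannot serve as a check of the labels. The design text also names a normalization by Twist1 expression, of unstated form. Its bearing on these levels was not tested.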

How the data were processed

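The deposited log2 values of 23811 probe sets came, per the submitters' processing notes, from RMA (background correction, quantile normalization and summarization), and limma is also named there. No versions are stated. The design text, per the labels, adds a normalization by Twist1 expression, whose form is not given, and the deposited values hold no mean batch difference within groups. Of the probe sets, 20852 carry 1 symbol in the platform annotation, 1440 several and 1519 none, and for 846 genes the probe set with the highest mean was chosen. No detection calls were used, and precision is limited by the number of arrays.

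A linear model with terms for group and batch was fitted over all 15 arrays and 19297 genes in limma 3.58.1 in R 4.3.3 (9 residual and 3.93 prior degrees of freedom). Genes under an adjusted p of 0.05 (Benjamini-Hochberg) were called. Levels are means ± SD of 3 arrays, and intervals are 95% intervals of the fit. On simulated data for WT against VEC with 19297 genes, the fit found 97% of the genes shifted by 1 log2 unit and 72% of those shifted by 0.5, with 7 false calls. The simulated noise was independent between genes and of equal size on all arrays. In the data, WT replicate A stood apart for all members together, so these rates do not carry over to the members. The labels do not say that a letter pairs arrays, so no replicate block was used. Deviations over all genes did not correlate within every pair of the same letter, and the most negative pairs held a WT array. This cannot exclude a shared letter effect in the members, whose mean was highest on replicate A and lowest on replicate B in every group but WT. Calls with a block are given below. The members, role groups and lists were chosen with earlier results of these data known. Values on every array are given for up to 2 members per role group with the smallest p in WT against VEC (4 in groups of 8), and for up to 6 called per other comparison. Of each further list, up to 4 genes with the smallest p follow the same rule, printed promoters exclude chromosome 18, and Sesn1 and Ccng1 were named after their values were seen. The batch difference without WT replicate A was also examined after the data were seen. Listed genes without a probe set of their own, among them Ccnb1 and Cdkn1a, were not used here. Alternatives changed the batch term, a replicate block, a Twist1 covariate, centring, normalization, dim genes, probe sets, weights and the arrays used. Figures were drawn with matplotlib 3.10.9.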

Additional observations from a re-analysis of the deposited data

How the results depend on the processing

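The direction of the median over the 46 members was the same under every alternative tried for WT against VEC and for the 3 comparisons with WT, while the number of calls was not. For WT against VEC (10 called), it was 17 without the batch term, 2 with the replicate block and batch, 4 with array weights (median -0.39), 0 within batch A, 6 within batch B, and 0 by limma with Twist1 as a covariate or with the compared arrays alone (29 and 20 at an unadjusted p under 0.05). Leaving out 1 array gave 0 to 43, with medians from -1.06 to -0.35. For DQD against WT (37) it was 19 with the replicate block, 12 within batch B (median 0.52), 0 within batch A or with the compared arrays alone (22 and 27 at an unadjusted p under 0.05), and 0 to 46 without 1 array, with medians from 0.60 to 1.29. For F191G against WT (2) it was 24 without the batch term, 4 with median centring, 7 without the dimmest genes, 1 with quantile normalization or all probe sets, and 0 by limma with the replicate block, the Twist1 covariate, array weights or the compared arrays alone (44, 45, 37 and 2 members at an unadjusted p under 0.05). Batch A and batch B alone also gave 0 (medians 1.34 and 0.32, 17 and 34 members). Without 1 array it was 0 to 42, with medians from 0.47 to 1.16. For AQA against WT (0) it was 7 without the batch term, 29 with array weights, 1 with quantile normalization, without the dimmest genes or within batch B, and 0 to 40 without 1 array (medians 0.40 to 1.13). AQA against VEC had 1 call with array weights, beside 517 of all genes called higher and 427 lower. Calls among all 19297 genes also moved. In WT against VEC, 1104 were called lower in the fit above, 1507 without batch, 548 with the block and 1029 with weights. The Twist1 covariate gave 6 and the compared arrays alone 1. Called higher than WT, in the same order of fits, were 2272, 2786, 1228, 2767, 1988 and 0 genes for DQD. For F191G the counts were 613, 1436, 26, 438, 164 and 0, and for AQA 59, 697, 0, 1366, 0 and 0. Against VEC, leaving out 1 array of the groups compared gave 0 calls by limma (0 or 1 member at an unadjusted p under 0.05) and medians from -0.18 to 0.13 for F191G, -0.10 to 0.17 for AQA and -0.02 to 0.24 for DQD. The cause was not tested. Same-letter arrays of different groups correlated in their deviations from -0.85 to 0.225, over 0.1 in 6 of 30 pairs, over all genes. For the 19 genes named by their p in WT against VEC, each gene was read in each alternative fit of that comparison. Of these combinations of gene and fit, 214 kept their side of the threshold, 83 lost the call and 26 gained it. The combinations share arrays.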
